A study of Rattus norvegicus with 18 samples.

Results

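Transcripts of 10 genes of lipoprotein metabolism were followed in rat liver: the apolipoprotein genes Apoa1, Apoa2, Apoa4, Apoa5, Apob, Apoc3 and Apoe, and Mttp, Lcat and Lpl, which encode proteins that build or remodel lipoproteins. They were chosen by gene symbol, and each matched 1 of the 32623 genes in the expression tables. The data came from male Wistar rats of the BarNa model, in which liver injury by inhaled carbon tetrachloride (CCl4), a hepatotoxin, is combined with phenobarbital in the drinking water and a high-fat and high-cholesterol diet (HFCD). In the 6 rats of the nonalcoholic steatohepatitis group (NASH), 6 weeks of CCl4 and phenobarbital came first and 4 weeks of HFCD followed. The 6 rats with compensated cirrhosis (NASH-CH) received CCl4 and phenobarbital for 24 weeks, and the HFCD was given during the last 16. The 6 control rats ate standard chow and drank plain water for 12 weeks, so their protocol matched neither model in length. Diet, CCl4 and phenobarbital were given to every rat of both models and to no control, so their parts cannot be told apart. The labels describe 10 and 24 weeks of combined treatment. Each rat gave 1 library. Rats were housed in pairs and the sources do not say which shared a cage, so p-values measure the spread between rats taken as separate.

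Apolipoproteins are the proteins that coat lipid particles and direct them to enzymes and receptors. Hepatocytes load apoB with lipid by means of the microsomal triglyceride transfer protein and secrete it as very low-density lipoprotein (VLDL), and they also secrete apoA-I, the main protein of high-density lipoprotein (HDL). In the circulation, lipoprotein lipase (LPL) on the capillary wall hydrolyses the triglyceride of VLDL, and lecithin-cholesterol acyltransferase (LCAT) esterifies the cholesterol of HDL.

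Total expected counts ran from 19498534 to 29491947 per library in control and NASH rats and from 44680344 to 60117822 in NASH-CH rats, so depth and the NASH-CH group cannot be told apart. The 10 genes held 1.56 to 2.78% of all counts of a library. The hepatocyte marker Alb, the gene for albumin, was abundant in every group, with a mean of 105900 CPM (counts relative to the scaled library total) among controls and 71040 CPM among NASH-CH rats. Of 10 hepatocyte markers, 0 passed the test in NASH, and 2, Alb (log2 fold change -0.61, adjusted p = 0.0304) and Ttr (-0.76, adjusted p = 0.0174), were lower in NASH-CH. Of 9 stellate cell markers, 1 was higher and 1 lower in NASH, and for NASH-CH the counts were 4 and 1. Of 7 endothelial markers these counts were 0 and 0, then 1 and 0, and 4 tested cholangiocyte markers gave 0 throughout against controls. One library stood apart. NASH-CH rat 5 had the lowest level of its group for 8 of the 10 genes (Apoa2, Apoa4, Apoa5, Apob, Apoc3, Apoe, Mttp and Lcat) and the highest for Apoa1 and Lpl. It also had the lowest summed level of the hepatocyte markers in its group (87280 CPM, group range 87280 to 144200). Alb alone made up 41370 CPM of that sum. Among these markers the rat was lowest for Alb, Ttr, Fgb, Apoh, Cps1 and Hnf4a, not for Serpina1, Ahsg or Tat, and highest for Tf (27040 CPM). Its summed level of 7 endothelial markers was the lowest of the group (207.5 CPM). That of 6 cholangiocyte markers was the highest (51.5 CPM, group range 6.53 to 51.5). The NASH-CH fold changes of the 10 genes are therefore given with and without NASH-CH rat 5. Those against control for other genes of lipoprotein metabolism are given so where leaving it out changed a call.

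Lpl was higher and Apoa1 lower in both models, and Apoa4 was lower in NASH-CH. Levels are in CPM, scaled by the trimmed mean of M values (TMM). Genes were tested by limma's moderated test, and each adjusted p is a Benjamini-Hochberg value over the 12904 genes that passed the filter on low counts, all 10 among them, with a threshold of 0.05. In NASH, 1 of the 10 genes was higher and 1 lower than in control rats, where 3.12% of all tested genes passed (1.58% higher, 1.54% lower). For NASH-CH, 1 gene was higher and 2 lower, where 17.0% of all tested genes passed (8.38% higher, 8.60% lower). The median log2 fold change of the 10 genes was -0.056 in NASH and -0.34 in NASH-CH, against 0.0072 and 0.013 over all tested genes. The NASH-CH median includes rat 5, the lowest of its group for 8 of the 10 genes, and was not computed without it. In a bulk sample, fewer cells of a type and less RNA per cell cannot be told apart. Both comparisons use the same 6 control rats.

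**Figure D1:**
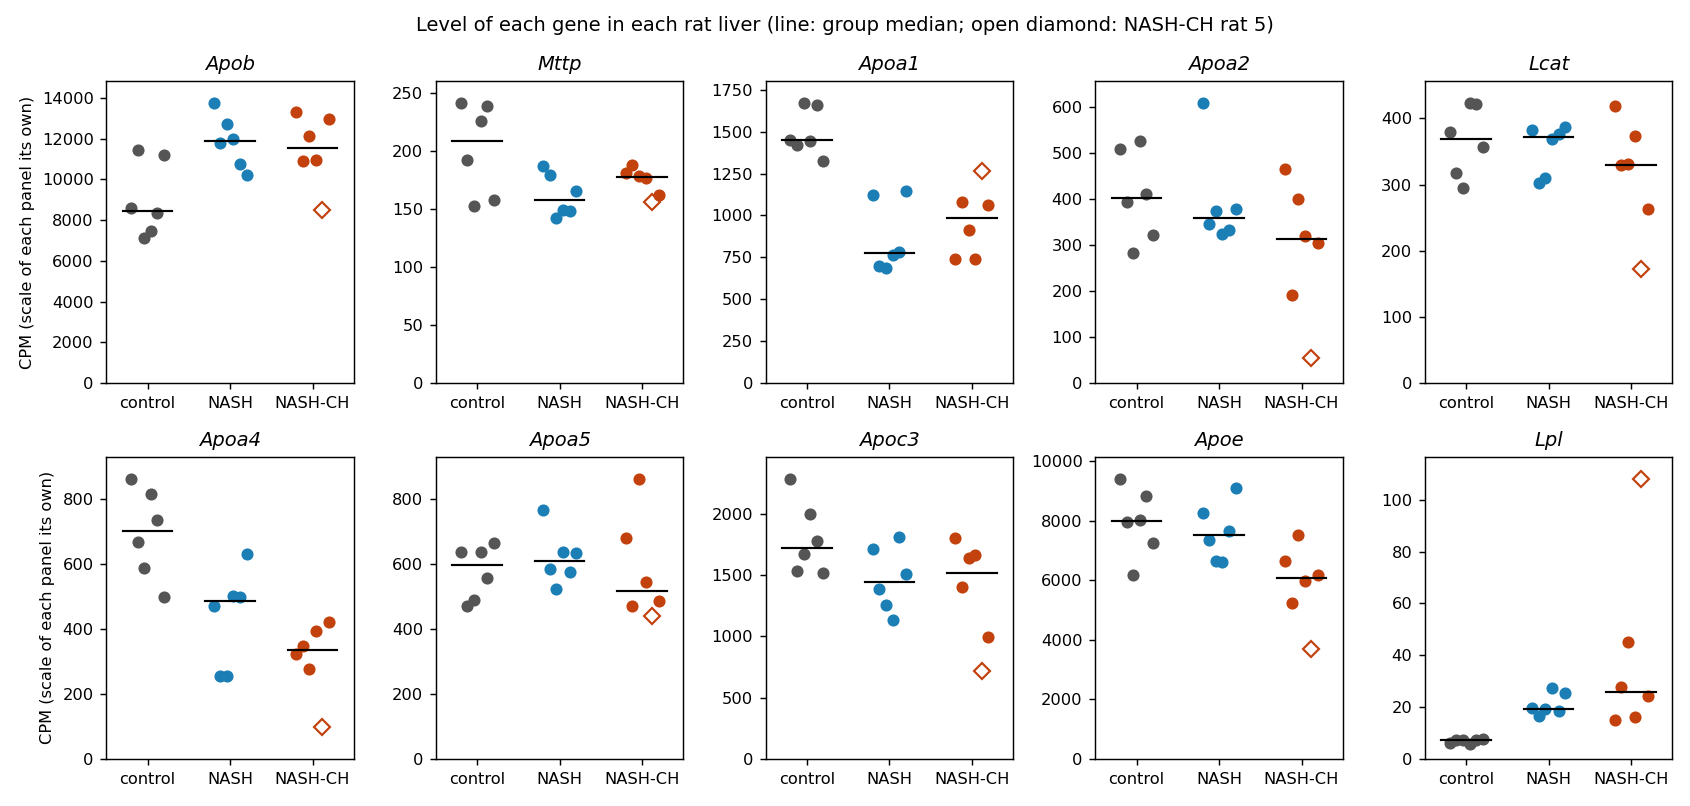
Level in each rat liver of the 10 genes, in CPM (vertical axis from 0, scale of each panel its own), for 6 control, 6 NASH and 6 NASH-CH rats. Each point is 1 rat, the line is the group median and the open diamond is NASH-CH rat 5; for Apoa1 and Lpl no rat of either model lies within the range of the controls.

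Apob (ENSRNOG00000005542) encodes the structural protein of VLDL and LDL. Levels ran from 7113 to 11420 CPM in control rats (median 8465), from 10220 to 13730 in NASH rats (median 11890) and from 8506 to 13300 in NASH-CH rats (median 11520). The groups overlapped, with 4 NASH and 3 NASH-CH rats above every control rat. The log2 fold change was 0.42 in NASH (SE 0.14, adjusted p = 0.107) and 0.36 in NASH-CH (SE 0.15, adjusted p = 0.102), and neither passed. Without NASH-CH rat 5 the second was 0.44 and passed (adjusted p = 0.0394). With sample quality weights both passed (0.47, adjusted p = 0.0234, and 0.46, adjusted p = 0.0279), and the first also passed by DESeq2 (0.39, adjusted p = 0.0471). Both passed too when scaled by library size only (0.64 and 0.62), but that scaling moved the median of all tested genes up to 0.23 and 0.27.

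Mttp (ENSRNOG00000010655) encodes the large subunit of the transfer protein that lipidates apoB in the endoplasmic reticulum. Its level ran from 152.6 to 241.2 CPM in control rats (median 209.2), from 142.4 to 187.1 in NASH rats (median 157.6) and from 156.1 to 188 in NASH-CH rats (median 177.7). Both models overlapped the lower part of the control range, and 3 NASH rats but 0 NASH-CH rats lay below every control rat. On the log2 scale the fold change was -0.30 in NASH (SE 0.12, adjusted p = 0.158) and -0.19 in NASH-CH (SE 0.13, adjusted p = 0.310), the latter being -0.16 without rat 5.

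Apob and Mttp were also set against each other within each library, which removes the scaling between libraries. The ratio of Apob to Mttp counts ran from 33.0 to 70.8 in control rats (median 41.1), from 61.7 to 89.5 in NASH rats (median 72.8) and from 54.5 to 79.8 in NASH-CH rats (median 64.8). Transcript lengths enter this ratio, so it is not a ratio of molecules. It was higher in NASH than in control rats, by 0.71 on the log2 scale (two-sided exact permutation test, p = 0.00866, adjusted p = 0.0390 over 9 tests of ratios), and all 6 NASH rats lay above the control mean. In NASH-CH the difference of 0.55 did not pass (exact permutation p = 0.0346, adjusted p = 0.0779), although all 6 rats lay above the control mean. Control rat 6, at 70.8, lay within the range of both models, and without it the NASH-CH difference was 0.68 (adjusted p = 0.0195). Without NASH-CH rat 5 that difference was 0.60 (adjusted p = 0.0779). The NASH difference no longer passed when any one of the 6 NASH rats was left out (adjusted p from 0.0584 to 0.0818), nor with medians in place of means (0.84, adjusted p = 0.0584).

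Apoa1 (ENSRNOG00000045679) encodes apoA-I, which takes up cholesterol from cells and activates LCAT. Levels ran from 1323 to 1668 CPM in control rats (median 1447), from 685.9 to 1144 in NASH rats (median 773.3) and from 742.5 to 1264 in NASH-CH rats (median 986.3). No rat of either model reached the lowest control rat, although NASH rats 1 and 6 and NASH-CH rat 5 came nearest to it. Groups did not overlap for 2 of the 10 genes in NASH (Lpl higher, Apoa1 lower), and over all tested genes for 3.16% (1.77% higher, 1.39% lower). For NASH-CH they did not overlap for 3 of the 10 (Lpl higher, Apoa1 and Apoa4 lower), and over all tested genes for 7.11% (3.64% higher, 3.46% lower). The fitted log2 fold change of Apoa1 was -0.82 in NASH (SE 0.16, adjusted p = 0.011), which is 1.76-fold lower with a 95% interval of the ratio from 0.451 to 0.713. For NASH-CH it was -0.66 (SE 0.16, adjusted p = 0.0107), and leaving out rat 5 gave -0.74 (adjusted p = 0.00403). Scaling by library size alone shifted the median of all genes by 0.23 and 0.27, and the values of Apoa1 were then -0.59 (adjusted p = 0.0548) and -0.39 (adjusted p = 0.115), lower in both models but no longer past the threshold.

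Apoa1 and Apoa4 counts were fractional in all 18 rats, unlike those of the other 8 genes. For Apoa1, the sum with 1 unnamed gene model, AABR07070085.1 (ENSRNOG00000052246), was whole to within 0.011 in 18 of 18 rats. For Apoa4 this held with AABR07073400.1 (ENSRNOG00000059084). The next best of 3984 rows with fractional counts gave a whole sum in 4 and 6 rats. The partner row held 0.656 to 2.97% of the sum for Apoa1 and 8.59 to 12.3% for Apoa4, so the level of Apoa4 is the more uncertain. With the rows summed, an alternative added after the data had been seen, Apoa1 gave -0.82 and -0.67 and Apoa4 -0.76 and -1.27 in NASH and NASH-CH, and 0 of these calls changed.

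Apoa2 (ENSRNOG00000003500) encodes the other major protein of HDL. It did not pass in either model, with levels (mean ± SD, n = 6 per group) of 406.9 ± 97.2, 393.2 ± 107 and 289.3 ± 147 CPM in control, NASH and NASH-CH livers. NASH rat 1 lay above every control rat at 607.5 CPM, and NASH-CH rat 5 was at 54.6 CPM where the next lowest of its group was at 192.5. The log2 fold change was -0.051 in NASH (95% interval -0.81 to 0.71) and -0.71 in NASH-CH (95% interval -1.48 to 0.058, adjusted p = 0.193), and without rat 5 the second was -0.31. Lcat (ENSRNOG00000019573), the gene for LCAT, was at 365.7 ± 52.8, 354.4 ± 37.9 and 314.7 ± 86.8 CPM in the same order, with log2 fold changes of -0.042 (95% interval -0.38 to 0.30) and -0.25 (95% interval -0.60 to 0.10). Without rat 5 the NASH-CH value of Lcat was -0.096.

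The ratio of Apoa1 to Apoa2 counts compares the 2 main HDL proteins within a library. It ran from 2.75 to 5.92 in control rats (median 3.82), from 1.84 to 3.03 in NASH rats (median 2.19) and from 1.60 to 23.1 in NASH-CH rats (median 2.90). The ratio was lower in NASH, by -0.76 on the log2 scale (exact permutation p = 0.00649, adjusted p = 0.0390), with 6 of 6 rats below the control mean. Leaving out any one of the 6 NASH rats again lost the call (adjusted p from 0.0584 to 0.0818). The value of 23.1 was that of NASH-CH rat 5, and the difference from control was 0.077 with it (exact permutation p = 0.929) and -0.43 without it (adjusted p = 0.341).

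**Figure D2:**
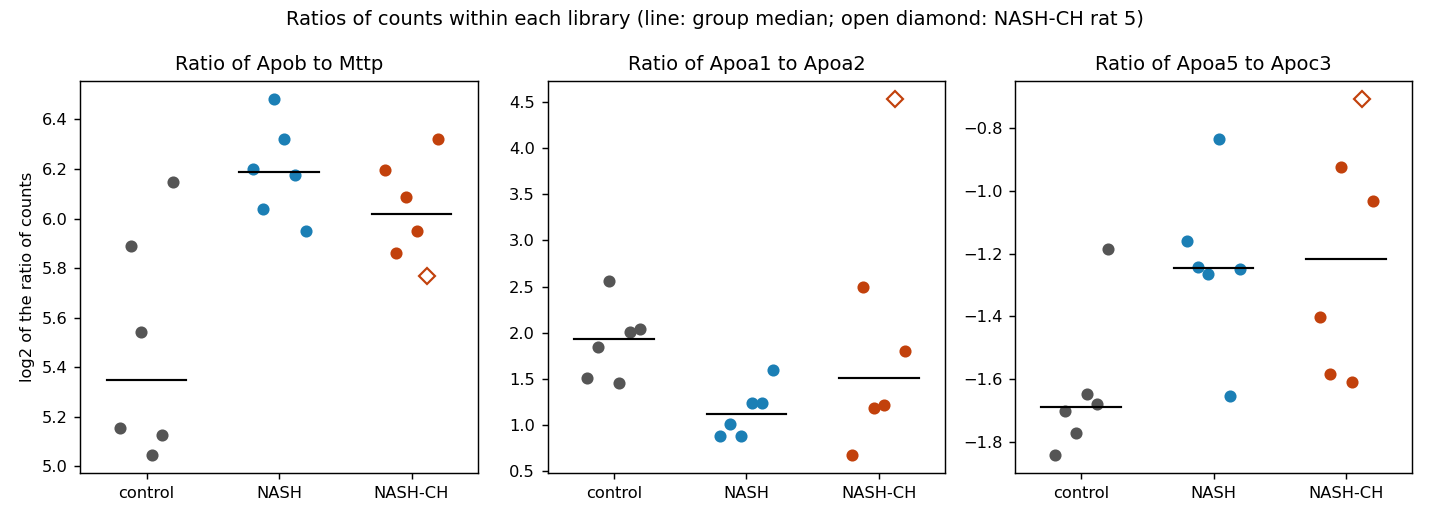
Log2 of the ratio of counts of Apob to Mttp, Apoa1 to Apoa2 and Apoa5 to Apoc3 within each library, for 6 control, 6 NASH and 6 NASH-CH rats. Each point is 1 rat, the line is the group median and the open diamond is NASH-CH rat 5, which sits far above all other rats for Apoa1 to Apoa2; every NASH rat lies above the control median for Apob to Mttp.

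Apoa1, Apoc3, Apoa4 and Apoa5 follow each other on chromosome 8 in the RefSeq gene table, a cluster known for genes that set plasma triglyceride. Apoa4 (ENSRNOG00000055909) encodes apoA-IV, made by liver and, more abundantly, by intestine. Its level ran from 499.3 to 862.1 CPM in control rats (median 701.9), from 254.7 to 630.9 in NASH rats (median 485.7) and from 99.8 to 422.4 in NASH-CH rats (median 336.4). Every NASH-CH rat lay below every control rat, whereas 4 of the 6 NASH rats did. The NASH-CH rats had a log2 fold change of -1.25 for Apoa4 (SE 0.30, adjusted p = 0.00958), 2.38-fold lower with a 95% interval of the ratio from 0.269 to 0.653. In NASH the value of -0.74 (SE 0.30) did not pass (adjusted p = 0.159), other than with sample quality weights (-0.74, adjusted p = 0.0463). With those weights 1509 of all tested genes passed in NASH, against 403 without them. NASH-CH rat 5 was the lowest rat by far, and without it the NASH-CH value was -0.97 (adjusted p = 0.00748). Of 4 genes in the data listed as markers of intestinal epithelium, Vil1, Fabp2 and Lct were at most 1.30 CPM in any rat, and Lct had 0 counts in 17 rats. The remaining listed gene, Cdh17, stood apart from them. It ran from 2.35 to 28.8 CPM among controls, 36.9 to 97.2 among NASH and 3.39 to 61.2 among NASH-CH rats, and was not read as a sign of intestinal tissue. The part of Cdh17 in the Apoa4 result was not tested.

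Apoa5 (ENSRNOG00000018436) encodes apoA-V, which raises the hydrolysis of triglyceride by LPL. Its level was 576.7 ± 83.6, 620.7 ± 83.0 and 581.4 ± 162 CPM in control, NASH and NASH-CH livers. The groups overlapped, and 2 NASH-CH rats lay above and 2 below every control rat. On the log2 scale the fold change was 0.11 in NASH (95% interval -0.20 to 0.43) and -0.016 in NASH-CH (95% interval -0.34 to 0.31), the latter being 0.051 without rat 5. The promoters of Apoa4, lower in NASH-CH, and of its neighbour Apoa5, which did not pass, are shown to let these adjacent genes be compared, as the 250 bases before the start site (RefSeq, build GRCr8, plus strand; the counts used another build). RefSeq promoter sequences were given for 4 of the 10 genes (Apoa4, Apoa5, Apoe and Lcat). For Apoa5 the first of 2 listed starts was taken. Capitals mark matches on either strand to 3 motifs, AAAGTCCA, a core bound by the hepatocyte factor HNF4A, AGGTCA, the core motif of nuclear receptors, and the TATA box TATAAA.
Apoa4 promoter, chr8:55435529-55435778: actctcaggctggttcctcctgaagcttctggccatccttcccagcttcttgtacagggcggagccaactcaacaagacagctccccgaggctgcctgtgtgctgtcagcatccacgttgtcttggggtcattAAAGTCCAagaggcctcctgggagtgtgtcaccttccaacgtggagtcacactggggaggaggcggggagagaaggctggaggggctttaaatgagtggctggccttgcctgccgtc
Apoa5 promoter, chr8:55457621-55457870: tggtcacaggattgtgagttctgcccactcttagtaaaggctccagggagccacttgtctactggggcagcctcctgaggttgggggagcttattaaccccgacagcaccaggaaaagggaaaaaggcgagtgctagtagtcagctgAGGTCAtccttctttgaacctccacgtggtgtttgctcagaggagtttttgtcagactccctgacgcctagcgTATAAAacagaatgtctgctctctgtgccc
The Apoa4 window held AAAGTCCA at 117 to 110 bases before the start, a motif found in 1.19% of 33469 such windows of the same length. The Apoa5 window held AGGTCA at 103 to 98 bases before the start (14.1% of windows) and TATAAA at 30 to 25 bases before it (12.9% of windows). No match overlapped another. The matches describe the sequences, and binding was not measured.

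Apoc3 (ENSRNOG00000047503) encodes apoC-III, an inhibitor of LPL and of the hepatic uptake of triglyceride-rich particles. Levels ran from 1517 to 2285 CPM in control rats (median 1725), from 1136 to 1810 in NASH rats (median 1448) and from 718.9 to 1802 in NASH-CH rats (median 1522). The groups overlapped, with 4 NASH rats and 3 NASH-CH rats below every control rat. The log2 fold change was -0.30 in NASH (SE 0.19, adjusted p = 0.389) and -0.44 in NASH-CH (SE 0.20, adjusted p = 0.137), and without rat 5 the latter was -0.28. The ratio of Apoa5, the activator, to Apoc3, the inhibitor, had medians of 0.310, 0.422 and 0.433 in control, NASH and NASH-CH livers. Its log2 differences from control, 0.40 for NASH (p = 0.0325, exact permutation) and 0.43 for NASH-CH (p = 0.0433, exact permutation), did not pass the adjustment (adjusted p = 0.0779 for each). Control rat 6 had the highest control ratio, 0.440, and without it the differences were 0.49 (adjusted p = 0.0195) and 0.52 (adjusted p = 0.0234), whereas without NASH-CH rat 5 the second was 0.33 (adjusted p = 0.160).

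Apoe (ENSRNOG00000018454) encodes apoE, the ligand by which remnants of VLDL are taken up by LDL receptor family members. Its level ran from 6182 to 9394 CPM in control rats (median 7980), from 6596 to 9089 in NASH rats (median 7513) and from 3691 to 7516 in NASH-CH rats (median 6076). Every NASH rat lay within the control range, and 4 NASH-CH rats lay below every control rat. On the log2 scale the fold change was -0.062 in NASH (95% interval -0.39 to 0.26). In NASH-CH it was -0.45 (SE 0.16, adjusted p = 0.0551), and without rat 5 it was -0.33 (adjusted p = 0.0876). It passed by DESeq2 (-0.44, adjusted p = 0.0186), with no filter on low counts (-0.45, adjusted p = 0.0379) and without control rat 3, NASH-CH rat 1 or NASH-CH rat 3 (adjusted p from 0.0324 to 0.0482). Over all genes, 5495 passed with no filter (3966 lower, median log2 fold change -0.11) and 2841 by DESeq2, against 2192 by limma-voom with the filter. Apoc1, Apoc2 and Apoc4, the genes of small apolipoproteins that neighbour Apoe on chromosome 1, had log2 fold changes of -0.46, -0.55 and -0.57 in NASH-CH (adjusted p = 0.153, 0.100 and 0.0717), and none passed. Rat 5 is included in these 3 values, and values without it are not given.

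Lpl (ENSRNOG00000012181), the gene for lipoprotein lipase, had the largest log2 fold change of the 10 genes in both models. Levels ran from 5.66 to 7.85 CPM in control rats (median 7.38), from 16.7 to 27.6 in NASH rats (median 19.4) and from 15.2 to 108 in NASH-CH rats (median 26.0). Every rat of both models lay above every control rat, and the spread was widest in NASH-CH (SD 35.3 CPM), where rat 5 stood at 108 and the next highest rat at 45.2. The lowest count was 96, which carries a counting error of 10.2%. The log2 fold change of Lpl was 1.58 in NASH (SE 0.36, adjusted p = 0.0260, 95% interval of the ratio 1.77 to 5.07). For NASH-CH it was 2.10 (SE 0.37, adjusted p = 0.000811, 95% interval of the ratio 2.52 to 7.30), and leaving out rat 5 gave 1.76 (adjusted p = 8.57e-05). In NASH the adjusted p exceeded 0.05 in 6 of 12 fits that each left out 1 rat, with log2 fold changes of 1.51 to 1.61: those without control rat 1 (adjusted p = 0.0639), 3 (0.0582), 4 (0.0641) or 5 (0.0528) and those without NASH rat 3 (0.0537) or 4 (0.0575).

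Lpl is expressed by adipocytes, muscle and macrophages, among them lipid-associated macrophages, and at low level by the adult liver. Markers of these cells were therefore measured beside it. The defining adipocyte genes Adipoq, Plin1 and Lep were at most 0.707 CPM in any rat. The other 3 adipocyte markers, Cidec, Cfd and Lipe, had log2 fold changes of 0.026, 0.17 and 0.48 in NASH and -0.029, -0.37 and 0.012 in NASH-CH, and none passed. Among muscle genes, Ckm and Acta1 were at most 0.207 CPM and Mb had 0 counts in all 18 rats, while Myh2 was at most 0.964 CPM and lower in NASH-CH (-3.13, adjusted p = 0.00173). For 6 lipid-associated macrophage markers other than Lpl, the summed level ran from 25.03 to 40.9 CPM among controls (median 34.9), 31.7 to 48.4 among NASH (median 38.6) and 57.6 to 148 among NASH-CH rats (median 82.9, rat 5 highest at 148). Of the 6, 1 passed as higher and 1 as lower in NASH, and 3 as higher and 1 as lower in NASH-CH. Gpnmb, a glycoprotein of lipid-laden macrophages, was higher by 1.57 in NASH (adjusted p = 0.00667) and by 3.11 in NASH-CH (adjusted p = 5.32e-07) on the log2 scale. Fabp5, a fatty acid binding protein, fell by 1.05 in NASH (adjusted p = 0.036) and by 1.21 in NASH-CH (adjusted p = 0.00306). Lgals3, the gene for galectin-3, passed as higher in NASH-CH (0.85, adjusted p = 0.0124), and Spp1 (-0.75 and 0.87) and Cd9 (0.33 and 0.89) did not pass in either model. Trem2, a lipid receptor of these cells, had 0 counts in 5 of 6 control rats, at most 0.221 CPM in NASH rats and 0.459 to 1.25 CPM in NASH-CH rats. Of 9 tested markers of macrophages and Kupffer cells, 1 (Marco) was lower in NASH and 6 were lower in NASH-CH (Cd163, Csf1r, Clec4f, Marco, Cd5l and Vsig4), and 0 were higher. Cd68 did not pass in NASH-CH (0.15, adjusted p = 0.49). By staining, the paper reported higher numbers of CD68- and CD163-positive macrophages in NASH-CH than in control livers. That counts cells by protein, a measure unlike these transcripts. The summed level of all 10 listed ran from 304.7 to 528.4 CPM among controls, 213.9 to 320.7 among NASH and 196.6 to 312.4 among NASH-CH rats. The part of these cells in the Lpl result was not tested.

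**Figure D3:**
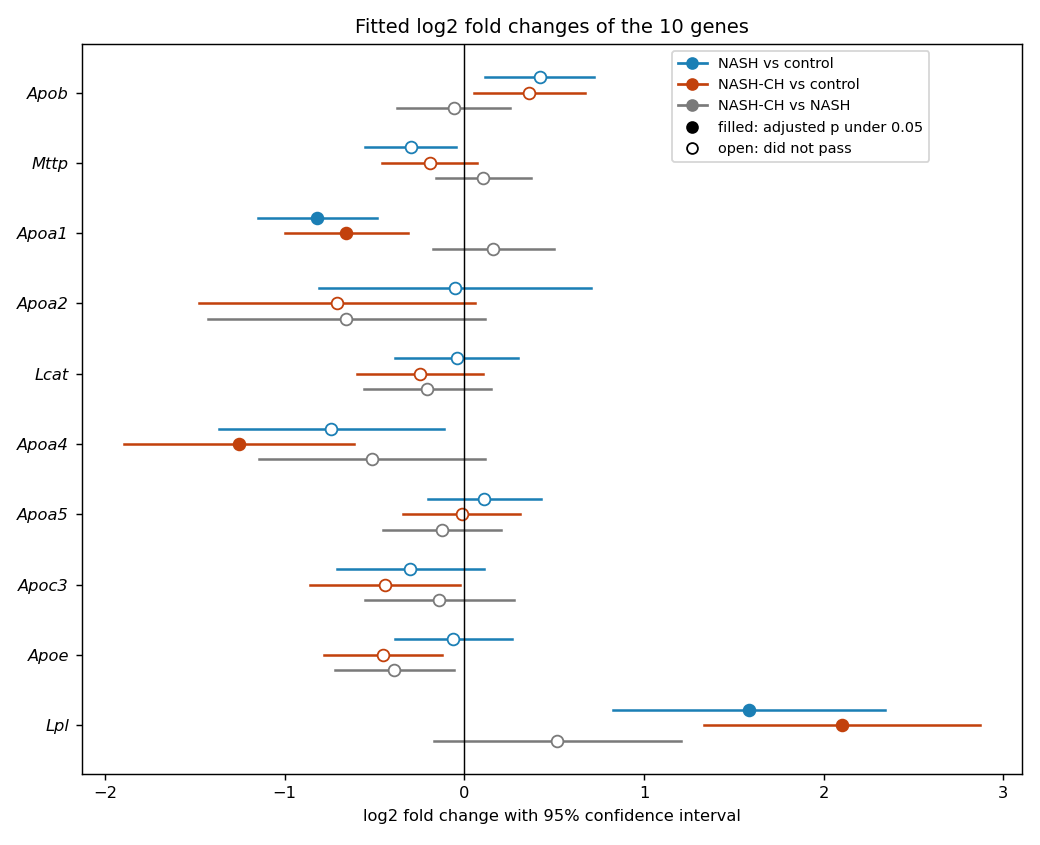
Fitted log2 fold change of each of the 10 genes (horizontal axis) with its 95% confidence interval, for NASH against control, NASH-CH against control and NASH-CH against NASH. Filled points have an adjusted p under 0.05: Apoa1 and Lpl in both models and Apoa4 in NASH-CH, and no gene between NASH-CH and NASH.

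Between NASH-CH and NASH rats, none of the 10 genes passed, where 4.20% of all tested genes did (1.81% higher, 2.39% lower). For 0 of the 10 were the groups apart, against 3.46% of all tested genes (1.36% higher, 2.10% lower). At an unadjusted p under 0.05 there was 1, Apoe, with a difference of -0.39 on the log2 scale (SE 0.16, adjusted p = 0.191), and edgeR and DESeq2 also called 0. Leaving out NASH-CH rat 5 gave -0.28 for Apoe (adjusted p = 0.296). The largest values were those of Apoa2, -0.66 (95% interval -1.43 to 0.11), Lpl, 0.52 (95% interval -0.17 to 1.203), and Apoa4, -0.51 (95% interval -1.14 to 0.11). Each of these intervals holds 0 and also differences of more than 1 log2 unit. Without NASH-CH rat 5 the 3 values were -0.26, 0.17 and -0.24. Levels of Apoa1 were 866.1 ± 211 CPM in NASH and 967.3 ± 207 CPM in NASH-CH rats, a log2 difference of 0.16 (95% interval -0.17 to 0.50). Leaving out rat 5 gave 0.074.

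Variation from rat to rat within groups was compared between the 10 genes. After the mean of each group was subtracted from log2 CPM, the correlation over 18 rats was 0.86 between Apoa2 and Apoe, 0.84 between Apoc3 and Lcat and 0.81 between Apoa2 and Lcat. Without NASH-CH rat 5 these were 0.75, 0.72 and 0.59. Apob and Mttp had a correlation of -0.00053. For Apoa1 the highest value was 0.57 with Lpl (0.45 without rat 5) and the next 0.085 with Mttp, while that with Apoa4 was 0.0022 with rat 5 and 0.43 without it. These are descriptions, since depth, scaling and tissue composition are shared by all genes of a library.

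The tested genes most like each of the 10 were sought over the same 18 rats and 12903 other genes. Apoe was most like Apoc4 (r = 0.93) and Apoc1 (r = 0.92), its neighbours, and these values were 0.87 and 0.83 without NASH-CH rat 5. Apoa4 was most like AABR07073400.1 (r = 0.98), the row that shares its reads, followed by Pc, the gene for pyruvate carboxylase (r = 0.92). Apoc3 was most like Ndrg2 and Ivd (r = 0.96 and 0.95), Lcat like Adhfe1 and Ndufs7 (r = 0.93 for both) and Apoa2 like Acox3 and Apoc2 (r = 0.92 and 0.91). Without rat 5 the values of Apoa2 dropped to 0.69 and 0.70. Lpl was most like Itgb1, the gene for the integrin beta-1 chain (r = 0.91), and Shtn1 (r = 0.89), which became 0.72 and 0.68 without rat 5. The leading values of the remaining genes were 0.84 for Apoa1 with Olfml2b and 0.81 with Fam198b, 0.85 for Apoa5 with Cep95 and 0.79 with Psmd9, 0.87 for Apob with Map2k5 and 0.79 with Fech, and 0.90 for Mttp with Xpc. All of these were chosen as the highest of many values, and several did not keep their place without NASH-CH rat 5. Acox3 and Apoc2 then ranked 62 and 52 for Apoa2, Itgb1 and Shtn1 13 and 30 for Lpl, Adhfe1 and Ndufs7 6 and 12 for Lcat (r = 0.83 and 0.82), and Fech 36 for Apob (r = 0.72).

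The 10 genes were then set beside 110 other genes of lipoprotein metabolism in 5 lists, of which 105 were in the tables and 98 were tested. Of the 98, 3 were higher and 3 lower in NASH, and 12 higher and 6 lower in NASH-CH. Their median log2 fold change was -0.034 in NASH and -0.058 in NASH-CH. These shares, 6 and 18 of 98, stood against 3.12% and 17.0% of all tested genes.

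Among 14 other apolipoprotein genes, NASH had 1 higher and 1 lower, and NASH-CH 1 higher and 3 lower. Clu, which encodes clusterin (apoJ), a chaperone carried on HDL, rose from a mean of 564.7 CPM among controls to 833.6 among NASH and 919.0 among NASH-CH rats (log2 fold change 0.57, adjusted p = 0.00528, and 0.71, adjusted p = 5.95e-05). Every rat of both models lay above every control rat. The genes that fell belong to the apoL family, Apol9a in both models (-1.46, adjusted p = 0.00545, and -1.55, adjusted p = 0.000184), and Apol3 (-1.12, adjusted p = 0.0391) and Apol11a (-1.41, adjusted p = 0.0292) in NASH-CH. Apol11a was low, at 1.61 CPM in control and 0.473 in NASH-CH rats. Genes of the apoL family resemble each other, so reads could have been split among them by the authors' counting. Leaving out 1 rat lost the NASH-CH call of Apol3 in 7 of 12 fits and of Apol11a in 4. The median of the list was -0.12 in NASH and -0.44 in NASH-CH.

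Of 26 genes for assembly and secretion of apoB particles, NASH had 0 higher and 2 lower, and NASH-CH 2 higher and 2 lower. Tmem41b, a scramblase of the endoplasmic reticulum needed for VLDL lipidation, fell in both models (-0.57, adjusted p = 0.00562, and -0.40, adjusted p = 0.0104), and each rat of both models lay below every control rat. With library size only neither passed (-0.35, adjusted p = 0.0912, and -0.14, adjusted p = 0.401). Surf4, the cargo receptor that carries lipoproteins out of the endoplasmic reticulum, was lower in NASH (-0.43, adjusted p = 0.0340), a call lost in 9 of 12 fits that each left out 1 rat. Its value in NASH-CH was -0.23 (adjusted p = 0.150). In NASH-CH, Sort1, the gene for the sorting receptor sortilin, was higher (0.50, adjusted p = 0.00427, all rats above every control rat), and so was Mia3, whose product TANGO1 helps load large cargo at exit sites (0.50, adjusted p = 0.0252). Smlr1, which encodes a small membrane protein, was lower (-0.56, adjusted p = 0.0335). Calls of Mia3 and Smlr1 were lost in 6 and 8 of 12 such fits, the latter also without NASH-CH rat 5 (-0.46, adjusted p = 0.0638).

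Among 11 tested genes listed as regulators of LPL and related lipases, 0 passed in NASH (limma-voom). In NASH-CH, Angptl4, a secreted LPL inhibitor, was lower at 31.9 against 84.1 CPM (log2 fold change -1.46, adjusted p = 0.0352). The call was lost in 6 of 12 fits that each left out 1 rat, including that without rat 5 (-1.18, adjusted p = 0.0694). Glmp, also on the list, encodes a lysosomal membrane protein, and its bearing on LPL was not tested. Its level was higher in NASH-CH (0.29, adjusted p = 0.0167, all rats above every control rat). Gpihbp1, the capillary anchor of LPL, was too low to be tested.

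Of 21 genes of lipoprotein receptors and of HDL formation and remodelling, 0 passed in NASH (limma-voom) and 5 were higher in NASH-CH. Lrp1, a remnant receptor with the highest mean CPM of the list (not per length), did not pass in either model (0.68 with adjusted p = 0.136 in NASH, 0.35 with adjusted p = 0.381 in NASH-CH). In NASH-CH, Sdc1, the heparan sulfate proteoglycan that binds remnants, rose from 37.7 to 70.7 CPM (0.91, adjusted p = 0.000157), and Vldlr, the VLDL receptor, from 0.626 to 2.72 CPM (2.01, adjusted p = 0.00507). For both, every NASH-CH rat lay above every control rat. Cd36, a fatty acid and lipoprotein scavenger receptor (1.04, adjusted p = 0.0271), Abcg1, a cholesterol exporter to HDL (0.57, adjusted p = 0.0118), and Mylip, the ligase that degrades the LDL receptor (0.58, adjusted p = 0.0455), were higher as well. The call of Cd36 was lost in 5 and that of Mylip in 10 of 12 fits that each left out 1 rat, for Mylip also without NASH-CH rat 5 (0.46, adjusted p = 0.0740).

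Among 26 transcription regulators and editing factors, 2 were higher in NASH and 3 in NASH-CH. Ppara, the fatty acid receptor of hepatocytes, was at 21.6, 39.9 and 39.8 CPM in control, NASH and NASH-CH livers (log2 fold change 0.91, adjusted p = 0.0308, and 0.88, adjusted p = 0.0132). A1cf, the RNA-binding partner of the Apob mRNA editing enzyme, was higher in both models too (0.65, adjusted p = 0.0334, and 0.54, adjusted p = 0.0336). Pparg, the related receptor of adipocytes and steatotic liver, was at 1.33 CPM in control and 2.33 in NASH-CH rats (0.81, adjusted p = 0.0432). Of these calls, the NASH ones were lost in 9 (Ppara) and 8 (A1cf) of 12 fits that each left out 1 rat, and the NASH-CH ones in 0 (Ppara), 7 (A1cf) and 7 (Pparg).

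**Figure D4:**
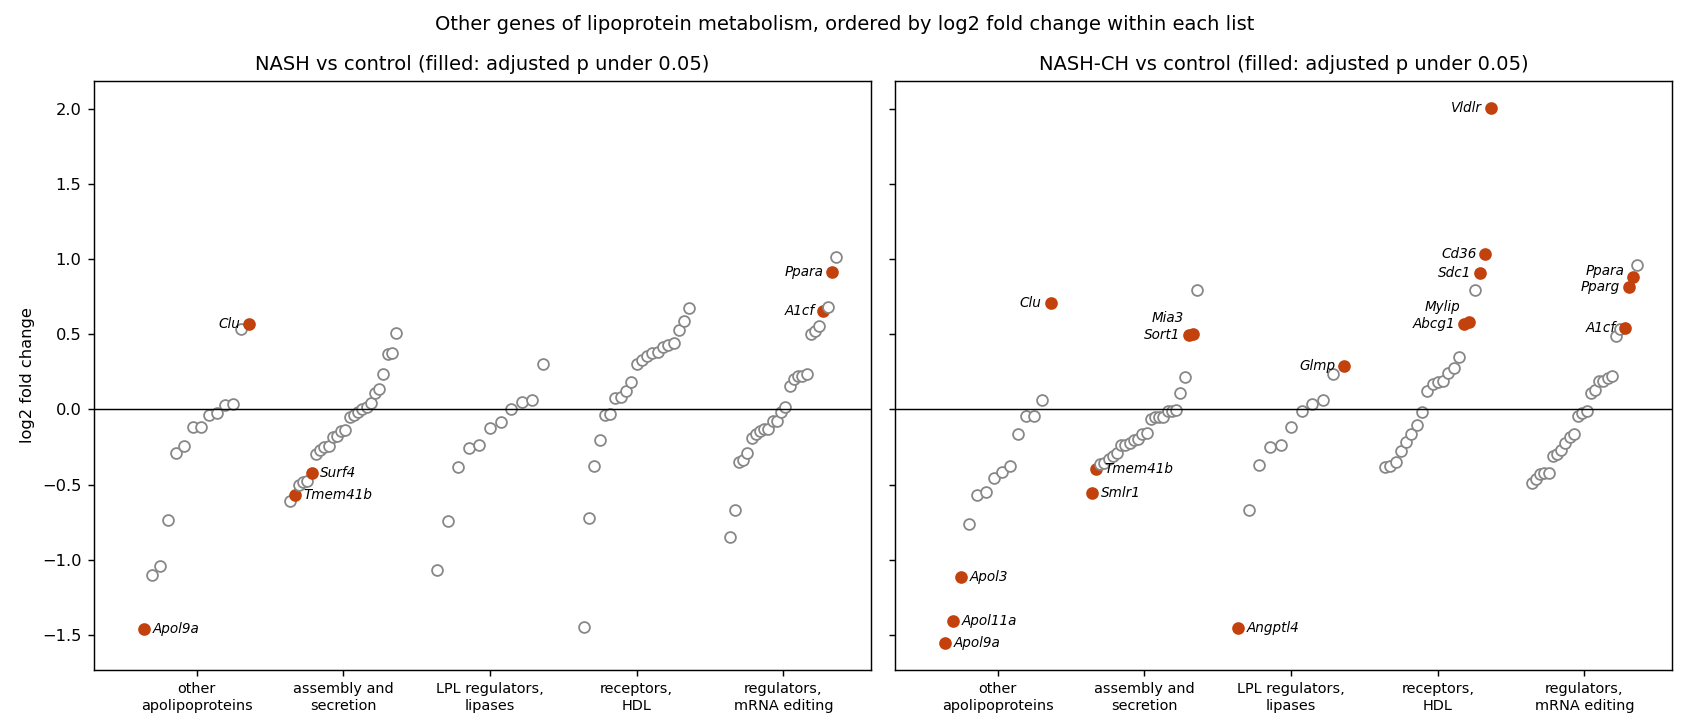
Log2 fold change (vertical axis) of 98 other genes of lipoprotein metabolism in NASH (left) and NASH-CH (right) against control, each point a gene, ordered within its list. Filled points with a name have an adjusted p under 0.05, 6 of 98 in NASH and 18 of 98 in NASH-CH.

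Between NASH-CH and NASH rats, 3 of the 98 genes were higher and 2 lower in NASH-CH, beside 4.20% of all tested genes (1.81% higher, 2.39% lower). Vldlr (log2 fold change 1.71, adjusted p = 0.0188), Sdc1 (0.55, adjusted p = 0.0248) and Glmp (0.28, adjusted p = 0.0431) were higher, with every NASH-CH rat above every NASH rat. Stab1, an endothelial scavenger receptor (-0.69, adjusted p = 0.0318), and Pon3, an enzyme carried on HDL (-0.39, adjusted p = 0.0489), were lower. Without NASH rat 3, 0 of these 98 genes passed, and without NASH-CH rat 5, 2 did.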

How the data were processed

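The authors trimmed adapters, aligned reads to Rnor_6.0 (STAR, 2 passes) and estimated gene counts by RSEM on Ensembl release 95; tool versions are not given in the sources used here. Deposited values were RSEM expected counts per gene and rat, not normalized. The labels name another RNA kit (RNAqueous-Micro) than the methods (miRNeasy). As in the methods, expected counts were rounded, scaled by TMM in edgeR 4.0.16, and fitted by limma-voom 3.58.1 (moderated test, Benjamini-Hochberg adjustment) in R 4.3.3. The filter (filterByExpr) and the fit of 18 rats together were chosen here. CPM used TMM-scaled totals, and log2 CPM a prior count of 2. Ratios of counts (0.5 added) underwent an exact permutation test (two-sided, smallest possible p 0.00216). The tests were checked on simulated data. Within each group all pairs of rats differed by more than counting error. The counting error given for Lpl covers counting only, whereas the 95% intervals of fold changes reflect the spread between rats.

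The 10 genes and all lists were chosen with earlier results of these data known. All 10 were named. Of each list, genes past the threshold were named, or else the one of highest mean CPM, of marker lists that of highest mean CPM or any beside a result, and for each of the 10 genes the 2 with the most similar profile. Genes named between NASH-CH and NASH, Apoc1, Apoc2, Apoc4 and Gpihbp1 were chosen after their values were seen. Results for 2 genes that this rule names are not reported here. Apol7a, Lpa, Sar1a, Ces1e and Cetp were not analysed here. Alternatives tried were DESeq2 1.42.0, the quasi-likelihood test of edgeR, other scalings and filters, quality weights, 2-group fits, a replicate block and leaving out each rat. Nothing says that rats of the same number were handled together.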

Additional observations from a re-analysis of the deposited data

Results flagged for a closer look

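In a group of 6 rats, a rat was noted where its gap to the nearest other rat was a larger share of the group's range than Dixon's 95% critical value, both taken on the log2 scale. Of 99 groups tested, 8 had such a rat, and chance alone gives about 1 in 20. Among the 10 genes, NASH rat 1 was high for Apoa2 at 607.5 CPM (others 323.4 to 377.6), and NASH-CH rat 5 was low for Apoa4 at 99.76 CPM (others 278.4 to 422.4). Control rat 6 was high for the ratio of Apoa5 to Apoc3, at -1.185 on the log2 scale (others -1.841 to -1.648). For Clu, control rat 3 was low at 458.2 CPM (others 549.9 to 603.9), and the same rat was low for Glmp at 15.9 CPM (others 19.51 to 21.55). Control rat 2 was high for Tmem41b at 36.28 CPM (others 29.85 to 31.73). NASH-CH rat 5 was low for Ppara at 19.3 CPM (others 37.35 to 49.64), and NASH-CH rat 3 was high for Pparg at 3.56 CPM (others 1.948 to 2.438).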

How the results depend on the processing

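Of the 10 genes, the count that passed in NASH was 4 with sample quality weights, where 1509 of all 12904 tested genes passed. Without 1 rat it was 1 to 2 in NASH, 3 to 4 in NASH-CH and 0 to 0 between the models. Of the 98 other genes, the count in NASH was 10 by edgeR (652 of 12904 genes overall), 19 by DESeq2 (1228 of 12904) and 15 with library size only (865 of 12904). It was 3 with no filter (268 of 20887) and 24 with quality weights (1509 of 12904). Without 1 rat it was 3 to 16 (16 without control rat 6, 3 without control rats 1, 3 or 4 or NASH rats 2, 3, 4 or 5). In NASH-CH it was 9 with only the 2 groups compared (1408 of 12941 genes) and 9 to 21 without 1 rat (9, 11 and 10 without control rats 1, 3 and 5). Between the models it was 8 by DESeq2 (949 of 12904 genes), 3 with at least 10 counts per rat (370 of 11033) and 2 with only the 2 groups (349 of 13060). It was 3 without small non-coding and mitochondrial genes (244 of 12653) and 0 to 5 without 1 rat (0 without NASH rat 3). Signs turned with library size only for Apoa2 (0.18), Apoe (0.17) and Lcat (0.19) in NASH and for Apoa5 (0.24), Mttp (0.070), Lcat (0.0028) and Surf4 (0.030) in NASH-CH. Apoa5 in NASH-CH was 0.012 by edgeR, 0.0053 by DESeq2 and 0.030 with quality weights, and Glmp in NASH -0.0020, -0.0071 and, with DESeq2 size factors, -7.664e-05. With medians in place of means, the ratio differences were 0.84 for Apob to Mttp and -0.81 for Apoa1 to Apoa2 in NASH, and -0.42 for the latter in NASH-CH.

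Without 1 rat, values that turned sign ran from -0.19 to 0.026 for Apoa2, -0.11 to 0.0043 for Lcat and -0.061 to 0.031 for Glmp in NASH, -0.14 to 0.051 for Apoa5 in NASH-CH, and -0.11 to 0.012 for Apob and -0.23 to 0.016 for Apoc3 between the models. For the ratios, Apob to Mttp ran from 0.62 to 0.84 in NASH and 0.46 to 0.68 in NASH-CH, Apoa1 to Apoa2 from -0.86 to -0.63 and -0.43 to 0.34, and Apoa5 to Apoc3 from 0.32 to 0.49, 0.33 to 0.52 and, between the models, -0.077 to 0.10.

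Deviations of same-numbered rats correlated at -0.12 to 0.17 between NASH and control, 0.027 to 0.12 between NASH-CH and control and -0.074 to 0.080 between NASH-CH and NASH rats. Not every pair was above 0.1 in any comparison and the labels tie no rats, so the numbers were not taken as pairs. With the replicate block 2, 3 and 0 of the 10 genes passed. Surf4 in NASH (-0.42), A1cf in NASH and NASH-CH (0.66 and 0.53) and Pparg in NASH-CH (0.77) did not pass. For ratios the block was a sign-flip test of same-numbered rats, with a smallest possible p of 0.03125 before adjustment over 9 tests. It could hardly pass, so its adjusted p of 0.169 and 0.141 for the ratio differences in NASH (0.71 and -0.76) does not bear on those calls. A rat correlated best with its own number, out of 6 candidates, in 6, 5 and 3 of 12 cases in the 3 comparisons. Mean correlations were 0.0516, 0.0732 and 0.0154 for same-numbered rats, against -0.0104, -0.0145 and -0.00289 for other pairs. Same-numbered rats were thus slightly more alike, and the source of this was not tested. Over all genes, 403 passed in NASH (204 higher, 199 lower), against 652 by edgeR, 1228 by DESeq2, 268 with no filter, 644 with 2 groups, 1509 with quality weights and 865 with library size only (785 and 80). In NASH-CH it was 2192 (1082 and 1110), against 5495 with no filter (1529 and 3966), 1408 with 2 groups and 3270 with library size only (2781 and 489). Between the models it was 542, against 949 by DESeq2, 2649 with no filter, 349 with 2 groups and 244 without small non-coding and mitochondrial genes. Causes of these changes were not tested. Depth limits Lpl most among the 10 genes, with a counting error of 10.2% at its lowest count.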
